A study of Mus musculus with 15 samples.

Results

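The collagen gene family is described here across brain microvessels of mice with and without a transplanted glioblastoma. Members were the rows of the deposited table with a symbol of the form Col, number, a, number and a protein-coding biotype, which gave 44 of 27174 genes. RNA was sequenced from 15 libraries in 5 groups of 3, and each library pooled microvessels of 3 adult wild-type mice of a BL6/57 background. Sham vessels came from healthy brain. Mice on control IgG gave both the contralateral vessels, from the side of the brain without tumour, and the untreated tumour vessels, from the region that held it. Dual therapy vessels came from the tumour-bearing region of mice given aflibercept, a decoy receptor for VEGF, with AMG386, a peptibody against angiopoietins. In triple therapy these agents were given with anti-PD-1, an antibody to a T cell checkpoint receptor. In mice with a tumour, vessels were taken 21 days after tumour cells were transplanted. No day is stated for sham mice, and the sources used here do not name the tumour line.

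Collagens are extracellular proteins in which chains with repeated glycine residues wind into a triple helix. Fibrillar collagens assemble into cross-linked fibrils, fibril-associated collagens decorate those fibrils, and type IV collagen forms the sheet-like network of basement membranes. In brain vessels the endothelium and its pericytes share a basement membrane rich in the α1 and α2 chains of type IV, while fibril-forming collagens are mainly products of perivascular and meningeal fibroblasts. Multiplexins such as type XVIII sit in basement membranes, beaded filaments of type VI link matrix to cells, and transmembrane collagens are anchored in the plasma membrane.

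Values are normalised scores, not read counts, and a score does not correct for gene length. Library totals were 11134670 to 15799111, and the estimated depth was 6365348 to 18325067 reads. Fold changes are log2 differences of score + 1, given with the standard error (SE) of a limma fit over all 15 libraries and p-values adjusted over the 19668 genes tested. The threshold for a call was an adjusted p below 0.05, and rose or fell refers to called genes only. Because a library is a pool of mice, p-values measure the spread between pools. All 11 endothelial markers were detected in every library, with summed scores of 73614 to 105756 in untreated tumour and 93192 to 149340 in the other groups. Mitochondrial ribosomal RNA took 21.47 to 33.19% of the score in untreated tumour, highest in replicate 2, against 9.55 to 17.37% elsewhere, and dual therapy replicate 2 lay apart on the second principal component. Untreated tumour replicate 1 was also apart from its group on that component, at 51.82 against 22.51 and 22.98, but was kept in the next fit. Without untreated tumour replicate 2 and dual therapy replicate 2, 27 members were called between tumour and contralateral vessels, against 29 with them. Between dual therapy and untreated tumour the counts were 15 against 21. The share of all genes called without both libraries is not given here, so these drops are not read as particular to collagens. In bulk vessels, fewer cells of a type and less RNA per cell cannot be told apart. Scaling by endothelial markers moved the median log2 change of all genes between tumour and contralateral vessels from 0.01 to 0.28, and voom on approximate reads moved it to -0.17; of the genes called, 49.6% rose with the scores as deposited, 71.6% with endothelial scaling and 34.3% with voom. No called member changed direction under any of these scalings.

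The family's summed score was highest in untreated tumour. It was 31036, 34768 and 28871 in sham and 33099, 42278 and 31222 in contralateral vessels. In untreated tumour it reached 63339, 55678 and 56862, above every other library. As a share of the library's total score this was 0.5063, 0.3524 and 0.4644%. By this share untreated tumour replicate 2, with the largest total score (15799111), lay within the triple therapy range of 0.3279 to 0.3624%. Dual therapy libraries held 40599, 31512 and 34774, and triple therapy libraries 38199, 40348 and 41213, both overlapping the range of contralateral vessels. Per kilobase of exon, Col4a1 ranked first and Col4a2 next in each group, ahead of Col18a1. Col4a1 had a score per kilobase of 1570 ± 476 (SD, n = 3) in contralateral vessels and 2604 ± 228 in untreated tumour, while Col18a1 had 262 ± 17.4 and 456 ± 60.8. The libraries of Col4a1 and Col4a2 overlapped in contralateral vessels and were separate in the other groups. The next place went to Col1a1 in sham, dual and triple therapy vessels, to Col12a1 in contralateral vessels and to Col11a1 in untreated tumour. In untreated tumour Col18a1, Col11a1 (338 ± 109 per kilobase) and Col1a1 (292 ± 73.5) each overlapped the next gene in the order. Col4a1 and Col4a2 together made up 50.27 to 66.03% of the family's score in contralateral vessels and 54.21 to 56.44% in untreated tumour. The 6 genes of types II, IX and XI made up 0.80% ± 0.30 of it in contralateral vessels, 12.4% ± 2.01 in untreated tumour, 4.57% ± 0.75 after dual and 4.59% ± 0.98 after triple therapy (SD, n = 3).

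**Figure D1:**
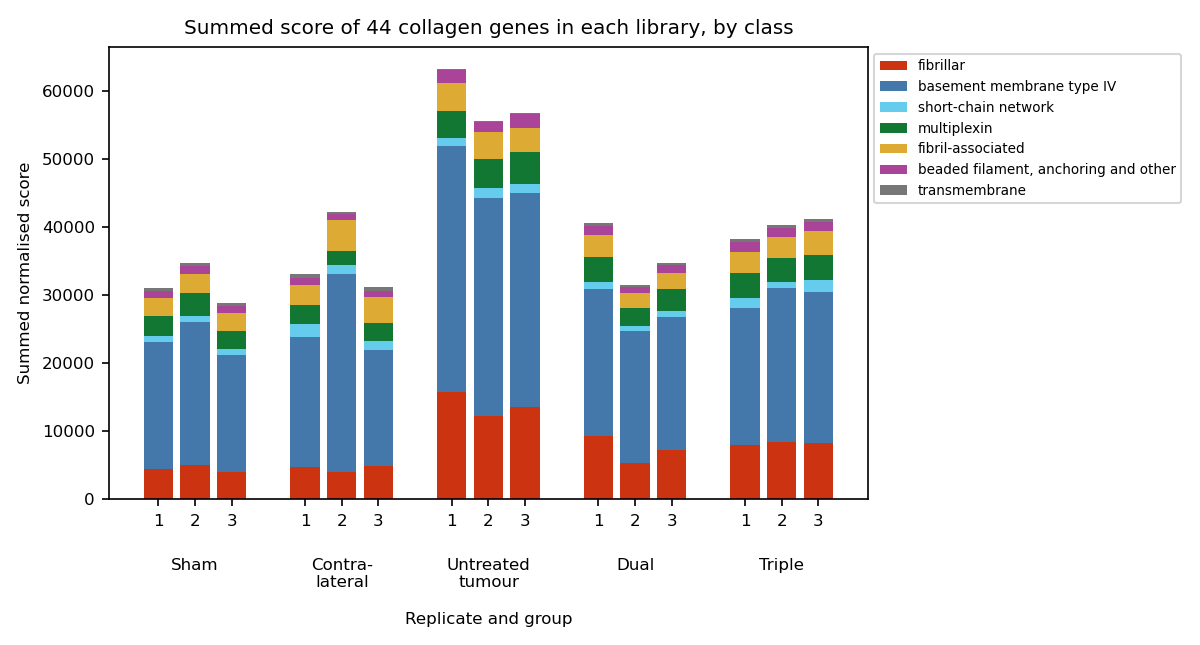
Summed normalised score (y axis) of the 44 collagen genes in each of the 15 libraries (x axis, replicates 1 to 3 of each group), stacked by collagen class. The untreated tumour libraries reach 55678 to 63339 and stand above all others in summed score, not corrected for library total. Type IV is the largest class in each bar, with a wider fibrillar segment in tumour.

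All 44 members passed the filter on low scores, and 29 (65.9%) differed among the 5 groups in the limma F-test, against 43.5% of all genes tested. Between untreated tumour and contralateral vessels 21 members rose and 8 fell, so 65.9% were called where 42.5% of all genes were. Of all genes 21.1% rose and 21.4% fell, against 47.7% and 18.2% of the members, and the members' median log2 change was 0.34 against 0.01 over all genes. Against sham, 20 rose and 10 fell (68.2%, with 46.6% of all genes called, 23.3% in each direction). After dual therapy 6 members rose and 15 fell relative to untreated tumour, 47.7% where 22.3% of all genes were called (12.1% higher and 10.2% lower). With endothelial scaling 3 members rose and 15 fell, while the share of all called genes that rose went from 54.3% to 27.2% and the median of all genes to -0.19. After triple therapy 9 rose and 11 fell, 45.5% where 32.2% of all genes were called (17.2% higher and 15% lower). The comparison with contralateral vessels and both therapy comparisons share the untreated tumour libraries, so their values are set side by side and not counted together. Groups did not overlap for 24 of the 29 members called between tumour and contralateral vessels, for 19 of 21 after dual and for 19 of 20 after triple therapy. Of all genes called, 93.3%, 89.8% and 94.5% did not overlap in these comparisons, so the members' shares of 82.8%, 90.5% and 95% were near or below those of all genes.

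**Figure D2:**
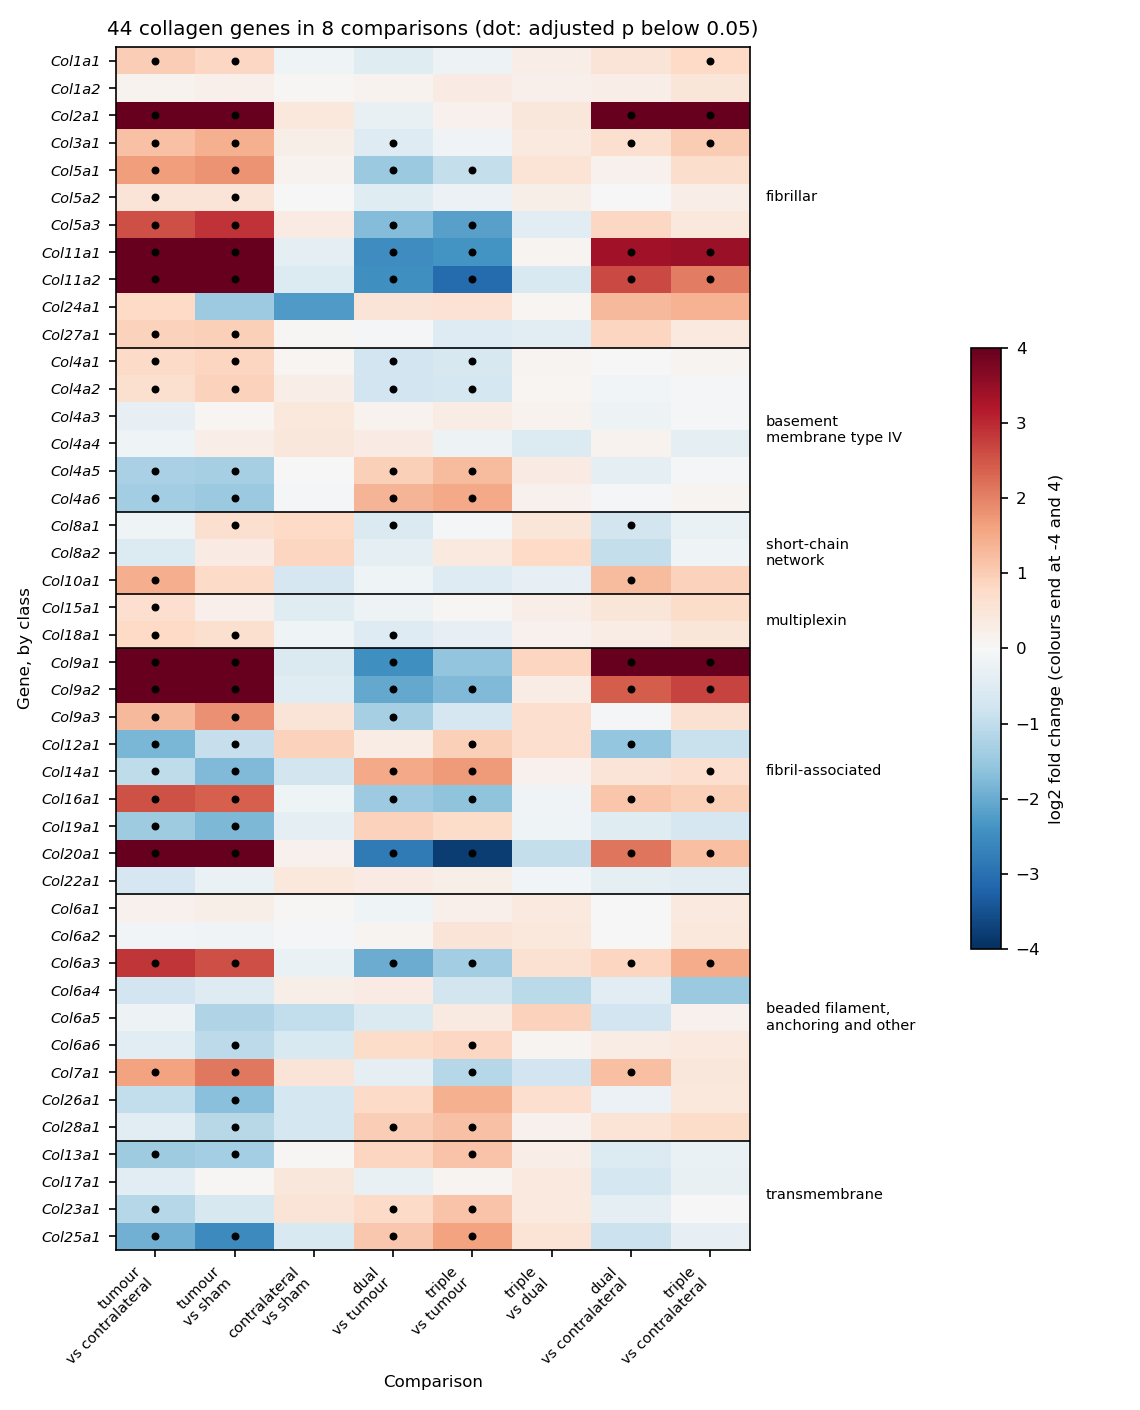
Log2 fold change (colour, ending at -4 and 4) of each of the 44 collagen genes (rows, grouped by class) in 8 comparisons (columns), with a dot where the limma adjusted p is below 0.05. Col2a1, Col9a1, Col9a2, Col11a1, Col11a2 and Col20a1 are deep red in tumour, Col4a5, Col4a6, Col13a1, Col23a1 and Col25a1 are blue against contralateral vessels, and the columns for contralateral against sham and triple against dual therapy hold no dot.

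Type IV genes split by chain pair. Between untreated tumour and contralateral vessels the α1 and α2 chain genes rose, the α5 and α6 chain genes fell, and the α3 and α4 chain genes were not called. Col4a1 (ENSMUSG00000031502, chromosome 8, 11198423 to 11312826, minus strand) encodes the α1 chain of the vascular basement membrane network. Col4a1 scored 10770, 11883 and 9635 in sham and 10207, 15781 and 9169 in contralateral vessels. It scored 21370, 18187 and 18752 in untreated tumour, 12278, 10813 and 10975 after dual and 11444, 12876 and 12641 after triple therapy. Tumour libraries were all above the others, while contralateral replicate 2 was the highest library outside tumour. Col4a1 rose by 0.77 ± 0.16 (adjusted p = 0.00066) in tumour against contralateral vessels, fell by 0.77 ± 0.16 (adjusted p = 0.00203) from tumour to dual and fell by 0.66 ± 0.16 (adjusted p = 0.00363) from tumour to triple therapy. Col4a2 (ENSMUSG00000031503, chromosome 8, 11312805 to 11449287, plus strand) encodes the α2 partner chain. Col4a2 scored 6700, 7780 and 6335 in sham and 7374, 12135 and 6527 in contralateral vessels. It scored 14280, 13239 and 12074 in untreated tumour, 8138, 7420 and 7523 after dual and 7406, 8478 and 8274 after triple therapy. Contralateral replicate 2 lay within the tumour range and all other libraries below it. Col4a2 rose by 0.66 ± 0.17 (adjusted p = 0.00362) in tumour against contralateral vessels, fell by 0.78 ± 0.17 (adjusted p = 0.00292) with dual and fell by 0.71 ± 0.17 (adjusted p = 0.00302) with triple therapy. Without contralateral replicate 2 the rise in tumour had an adjusted p of 9.87e-06 for Col4a1 and 1.55e-05 for Col4a2. Against contralateral vessels, Col4a1 after dual therapy differed by -0.01 ± 0.16 (adjusted p = 0.986) and after triple therapy by 0.11 ± 0.16 (adjusted p = 0.828). The per-length ratio of Col4a1 to Col4a2 stayed between 1.15 and 1.43 in all 15 libraries. The genes lie head to head and share 22 bases at their starts, and the sources used here do not say whether strand was used to assign reads.

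Col4a5 (ENSMUSG00000031274, chromosome X, 141475385 to 141689234, plus strand) and Col4a6 (ENSMUSG00000031273, chromosome X, 141165403 to 141474076, minus strand) encode the α5 and α6 chains, which pair with each other or with other chains in specialised basement membranes. Col4a5 scored 777, 821 and 754 in sham and 868, 714 and 761 in contralateral vessels. It scored 280, 297 and 372 in untreated tumour, 693, 555 and 578 after dual and 809, 758 and 716 after triple therapy. Col4a6 scored 301, 346 and 283 in sham and 345, 230 and 316 in contralateral vessels. It scored 81, 107 and 155 in untreated tumour, 319, 293 and 241 after dual and 311, 329 and 317 after triple therapy. For both genes the untreated tumour libraries were the lowest, with no overlap with any other group. Col4a5 fell by 1.31 ± 0.13 (adjusted p = 2.83e-07) in tumour, rose by 0.95 ± 0.13 (adjusted p = 7.67e-05) from tumour to dual and rose by 1.27 ± 0.13 (adjusted p = 1.81e-06) from tumour to triple therapy. Col4a6 fell by 1.40 ± 0.20 (adjusted p = 2.19e-05) in tumour, rose by 1.35 ± 0.20 (adjusted p = 0.000197) with dual and rose by 1.52 ± 0.20 (adjusted p = 2.35e-05) with triple therapy. Against contralateral vessels neither was called after therapy: Col4a5 differed by -0.36 ± 0.13 (adjusted p = 0.0673) with dual therapy, below all contralateral libraries, and by -0.03 ± 0.13 (adjusted p = 0.948) with triple therapy. Col4a6 differed by -0.05 ± 0.20 (adjusted p = 0.907) and 0.12 ± 0.20 (adjusted p = 0.856). Col4a3 (77 to 154 in all libraries) and Col4a4 (55 to 140), which encode the chains best known from the kidney filter, were called in no comparison.

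The starts of Col4a5 and Col4a6 face away from each other, with 1342 bases between them in RefSeq on GRCm38.p6, and the sequences before both starts are shown because these neighbours moved together. The Col4a5 stretch is chrX:141475169-141475384 (plus strand) and the Col4a6 stretch chrX:141474077-141474326 (minus strand), each 5′ to 3′ along its gene and cut to bases outside annotated exons. Capitals mark CCAAT, here in Col4a5, and GGGCGG, here in Col4a6 as CCGCCC on the other strand. The full 250 bases before the Col4a5 start also hold GGGCGG, but the cut stretch shown does not, so both windows hold this motif.
Col4a5: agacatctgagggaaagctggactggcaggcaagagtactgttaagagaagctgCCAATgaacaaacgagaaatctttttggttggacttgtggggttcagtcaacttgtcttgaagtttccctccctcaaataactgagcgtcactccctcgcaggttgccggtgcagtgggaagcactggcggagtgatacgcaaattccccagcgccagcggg
Col4a6: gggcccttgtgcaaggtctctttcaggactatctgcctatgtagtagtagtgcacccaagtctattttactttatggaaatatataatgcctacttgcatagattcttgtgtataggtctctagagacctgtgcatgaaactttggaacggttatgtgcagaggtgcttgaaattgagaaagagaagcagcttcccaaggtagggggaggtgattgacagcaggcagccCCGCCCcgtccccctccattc
Motifs were searched on both strands in the 250 bases before each RefSeq start, and the matches describe letters only. CCAAT was in 34.2% of 38 windows of the 35 members with an entry, against 33.8% of all 32851 windows. GGGCGG was in 57.9% against 32.7%, and AACAAT in 2.6% against 9.4%.

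**Figure D3:**
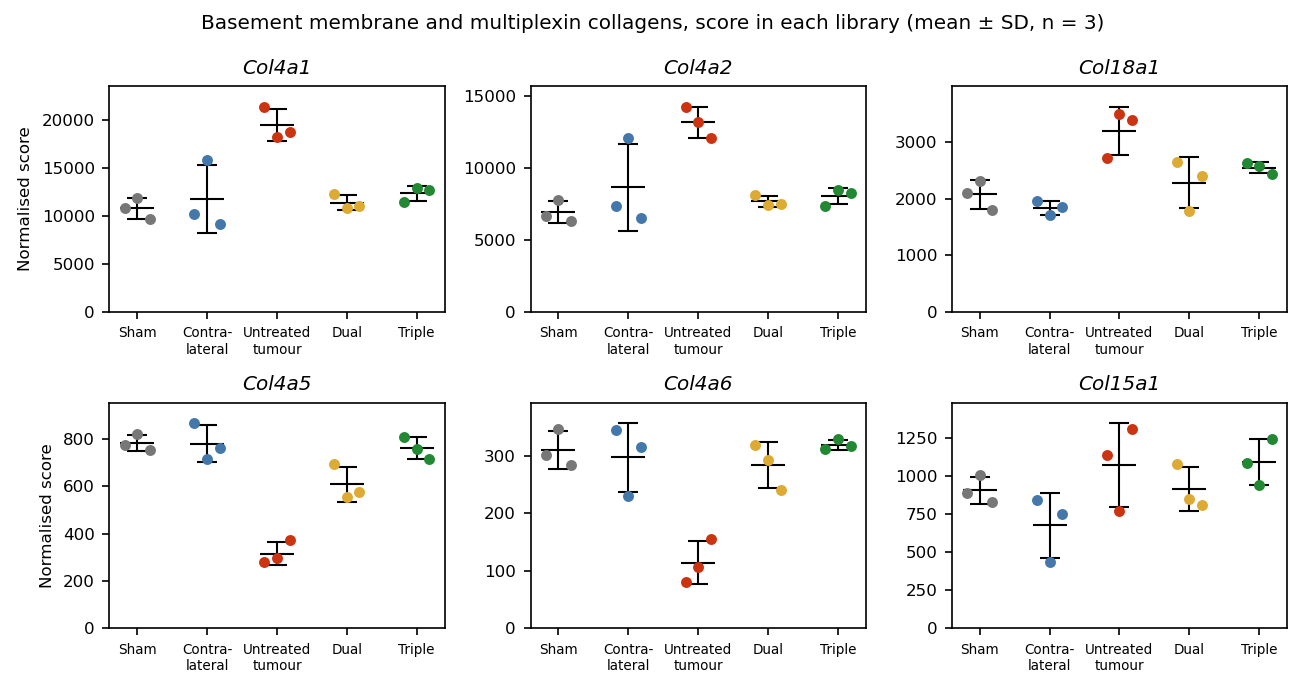
Normalised score (y axis, from 0) of Col4a1, Col4a2, Col18a1, Col4a5, Col4a6 and Col15a1 in each library (points) by group (x axis), with bars for the mean ± SD of 3 libraries. Untreated tumour is highest for Col4a1 (18187 to 21370) and lowest for Col4a5 (280 to 372) and Col4a6 (81 to 155).

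Both multiplexins rose in tumour against contralateral vessels, and Col18a1 alone of the pair was called against sham. Col18a1 encodes the basement membrane collagen whose end fragment is endostatin. Col18a1 scored 2106, 2320 and 1796 in sham and 1956, 1712 and 1852 in contralateral vessels. It scored 2713, 3503 and 3389 in untreated tumour, 2651, 1776 and 2407 after dual and 2630, 2580 and 2434 after triple therapy. Untreated tumour lay above the contralateral, sham, dual and triple therapy libraries, with no overlap. Col18a1 rose by 0.79 ± 0.14 (adjusted p = 0.000158) in tumour and fell by 0.50 ± 0.14 (adjusted p = 0.0142) with dual therapy, a call lost without dual replicate 2 (-0.33, adjusted p = 0.0898), with voom (adjusted p = 0.0883) and in the fit of only those 2 groups (adjusted p = 0.0742). With triple therapy it changed by -0.32 ± 0.14 (adjusted p = 0.0837), not called. Col15a1 encodes the related collagen XV of vessel basement membranes. Col15a1 scored 886, 1005 and 832 in sham and 839, 436 and 751 in contralateral vessels. It scored 1137, 770 and 1309 in untreated tumour, 1076, 851 and 808 after dual and 1086, 943 and 1244 after triple therapy. Its tumour and contralateral libraries overlapped, with contralateral replicate 2 lowest and tumour replicate 3 highest. Col15a1 rose by 0.69 ± 0.21 (adjusted p = 0.0138) in tumour, lost without contralateral replicate 2 (0.40, adjusted p = 0.102) or tumour replicate 3 (0.53, adjusted p = 0.0779) or with voom (adjusted p = 0.127), and was called in neither therapy comparison with tumour. Against sham it differed by 0.21 ± 0.21 (adjusted p = 0.439), with overlapping libraries. An antisense gene overlaps an exon of Col15a1, so reads of the pair may not be told apart. Among short-chain collagens, Col8a1 encodes a chain of the network of vessel walls. Col8a1 scored 669, 763 and 741 in sham and 1639, 1079 and 1127 in contralateral vessels. It scored 981, 1276 and 1111 in untreated tumour, 915, 602 and 761 after dual and 1115, 803 and 1312 after triple therapy. Contralateral and tumour libraries overlapped and sham was below both. Col8a1 rose by 0.63 ± 0.19 (adjusted p = 0.00972) in tumour against sham, lost with voom (adjusted p = 0.0537), fell by 0.58 ± 0.19 (adjusted p = 0.0323) from tumour to dual therapy and fell by 0.75 ± 0.19 (adjusted p = 0.0112) from contralateral to dual therapy vessels. The fall from tumour was lost without tumour or dual replicates 2 or 3 (adjusted p = 0.0648 to 0.156) or with voom (adjusted p = 0.102), and that from contralateral vessels without contralateral replicate 1 or dual replicate 2 (adjusted p = 0.0693 to 0.0742). In all, 7 of 26 alternatives did not call the fall from tumour and 5 of 26 that from contralateral vessels. Col8a2 (107 to 430 in all libraries) was called in no comparison. Col10a1, which encodes the collagen of hypertrophic cartilage and lies within Nt5dc1 on the opposite strand, scored 9 to 38 and was called between tumour and contralateral vessels (1.44, adjusted p = 0.00367) and between dual therapy and contralateral vessels (1.26, adjusted p = 0.028). The second call was lost without contralateral replicate 2 or 3 or dual replicate 1 or 2 (adjusted p = 0.0801 to 0.109), and in 10 of 25 alternatives in all.

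Of 11 fibrillar genes 9 rose in tumour against contralateral vessels and none fell, from 0.52 for Col5a2 to 5.84 for Col11a1. That was 81.8% of the class, where 42.5% of all genes were called and 21.1% rose. Col11a1 (ENSMUSG00000027966, chromosome 3, 114030540 to 114220718, plus strand) encodes the α1 chain of type XI, a thin-fibril collagen best known from cartilage. Col11a1 scored 108, 89 and 82 in sham and 93, 66 and 60 in contralateral vessels. It scored 5875, 3254 and 3785 in untreated tumour, 1007, 681 and 607 after dual and 643, 1014 and 792 after triple therapy. All 9 tumour-region libraries were above all controls, and untreated tumour was above both therapies. Its mean was 73.0 ± 17.6 in contralateral vessels and 4305 ± 1386 in untreated tumour (SD, n = 3). Col11a1 rose by 5.84 ± 0.23 (adjusted p = 2.07e-11) in tumour, fell by 2.48 ± 0.23 (adjusted p = 5.83e-06) from tumour to dual and fell by 2.38 ± 0.23 (adjusted p = 1.55e-06) from tumour to triple therapy. It remained above contralateral vessels by 3.36 ± 0.23 (adjusted p = 2.55e-07) after dual and 3.47 ± 0.23 (adjusted p = 1.48e-07) after triple therapy. Col11a2 (ENSMUSG00000024330, chromosome 17, 34039437 to 34066685, plus strand) encodes its α2 partner. Col11a2 scored 64, 48 and 68 in sham and 54, 32 and 38 in contralateral vessels. It scored 1658, 1509 and 1163 in untreated tumour, 237, 253 and 285 after dual and 143, 250 and 134 after triple therapy. Control, therapy and tumour libraries again formed separate ranges, with the therapies in between. Col11a2 rose by 5.11 ± 0.24 (adjusted p = 1.23e-10) in tumour, fell by 2.47 ± 0.24 (adjusted p = 7.06e-06) with dual and fell by 3.07 ± 0.24 (adjusted p = 4.53e-07) with triple therapy. Col2a1 (ENSMUSG00000022483, chromosome 15, 97975602 to 98004695, minus strand) encodes the main cartilage fibril chain. Col2a1 scored 14, 9 and 6 in sham and 11, 16 and 11 in contralateral vessels. It scored 331, 324 and 285 in untreated tumour, 429, 194 and 199 after dual and 225, 442 and 427 after triple therapy. Control libraries stayed at 6 to 16, and the 3 tumour-region groups overlapped one another. Col2a1 rose by 4.54 ± 0.34 (adjusted p = 1.94e-08) in tumour; with dual therapy it changed by -0.29 ± 0.34 (adjusted p = 0.573) and with triple therapy by 0.16 ± 0.34 (adjusted p = 0.758), neither called, and it stayed above contralateral vessels by 4.25 ± 0.34 (adjusted p = 8.24e-07) and 4.70 ± 0.34 (adjusted p = 2.11e-07). The per-length ratio of Col11a1 to Col2a1 was 7.28 to 12.87 in untreated tumour and 1.35 to 2.55 in the 6 treated libraries. It was 5.6 to 9.91 in sham, overlapping untreated tumour, and 2.99 to 6.13 in contralateral vessels.

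The sequences before the starts of Col11a1, Col11a2 and Col9a1 are shown because these genes had the 3 largest log2 rises in tumour against contralateral vessels. They are chr3:114030290-114030539, chr17:34038888-34039137 and chr1:24177360-24177609, all plus strand, from RefSeq on GRCm38.p6. Capitals mark GGGCGG and CCAAT on either strand (as CCGCCC and ATTGG on the other).
Col11a1: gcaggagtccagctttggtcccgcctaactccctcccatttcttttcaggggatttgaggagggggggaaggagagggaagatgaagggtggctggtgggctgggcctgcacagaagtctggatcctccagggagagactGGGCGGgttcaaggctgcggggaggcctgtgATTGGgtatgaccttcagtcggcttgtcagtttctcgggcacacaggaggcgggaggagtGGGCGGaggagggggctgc
Col11a2: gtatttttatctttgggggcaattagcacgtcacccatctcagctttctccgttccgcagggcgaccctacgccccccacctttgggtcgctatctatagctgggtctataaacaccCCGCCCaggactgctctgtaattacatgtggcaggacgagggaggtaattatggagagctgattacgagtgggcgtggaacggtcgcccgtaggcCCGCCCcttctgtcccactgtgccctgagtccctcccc
Col9a1: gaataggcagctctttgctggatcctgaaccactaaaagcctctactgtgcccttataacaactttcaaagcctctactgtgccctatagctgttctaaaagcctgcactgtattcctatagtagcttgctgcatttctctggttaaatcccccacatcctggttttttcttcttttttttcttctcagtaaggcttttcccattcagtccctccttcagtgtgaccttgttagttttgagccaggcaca
The Col11a1 stretch held 2 matches of GGGCGG and 1 of CCAAT, the Col11a2 stretch 2 of GGGCGG, and the Col9a1 stretch no match of these motifs. RefSeq has another Col9a1 start at 24195203, not shown, with CCAAT in the 250 bases before it.

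**Figure D4:**
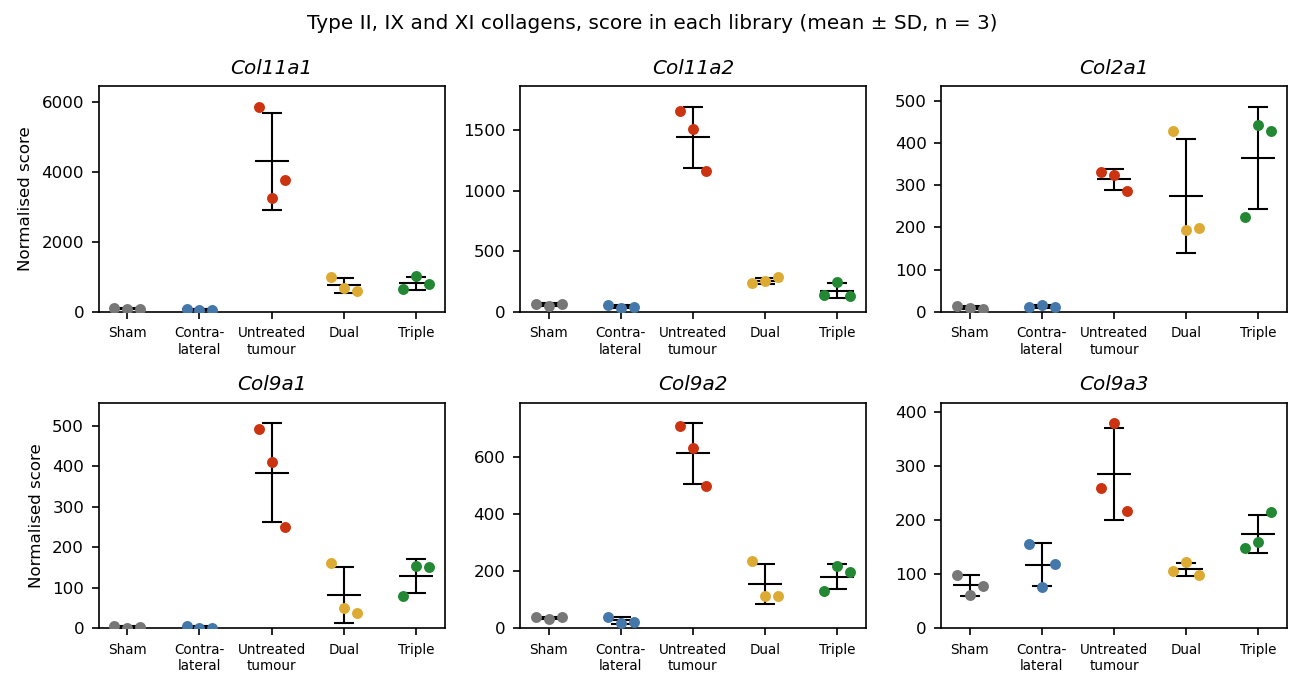
Normalised score (y axis, from 0) of Col11a1, Col11a2, Col2a1, Col9a1, Col9a2 and Col9a3 in each library (points) by group (x axis), with bars for the mean ± SD of 3 libraries. Col11a1 falls from 3254 to 5875 in untreated tumour to 607 to 1014 after dual therapy, while the 3 tumour-region groups overlap for Col2a1.

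Type I and type III genes, the main collagens of interstitial fibrils, changed less than types II and XI. Col1a1 (ENSMUSG00000001506, chromosome 11, 94936224 to 94953042, plus strand) encodes the α1 chain of type I. Col1a1 scored 989, 1208 and 980 in sham and 921, 779 and 1160 in contralateral vessels. It scored 1911, 1438 and 2403 in untreated tumour, 1792, 953 and 1444 after dual and 1705, 1496 and 1683 after triple therapy. Tumour libraries were above all control libraries but overlapped both therapies. Col1a1 rose by 0.995 ± 0.20 (adjusted p = 0.00066) in tumour, a rise of the mean from 953 ± 193 to 1917 ± 483 (SD, n = 3), and was not called in either therapy comparison with tumour. The change was -0.47 ± 0.20 (adjusted p = 0.102) with dual and -0.21 ± 0.20 (adjusted p = 0.467) with triple therapy. Triple therapy vessels stayed 0.79 ± 0.20 (adjusted p = 0.0268) above contralateral vessels, a call lost without contralateral replicate 1 or 2 or any triple therapy replicate (adjusted p = 0.059 to 0.133), with voom (adjusted p = 0.0881) or with no mean-variance trend (adjusted p = 0.119). Col1a2, which encodes the α2 partner chain, ranged over 1140 to 2393 and was called in no comparison; in tumour it differed from contralateral vessels by 0.15 ± 0.18 (adjusted p = 0.515). The per-length ratio of Col1a1 to Col1a2 was 1.02 to 1.33 in contralateral vessels, 1.92 to 2.48 in untreated tumour, 1.31 to 1.55 after dual and 1.40 to 1.54 after triple therapy, so untreated tumour did not overlap the rest; this ratio was not tested. Col3a1 (ENSMUSG00000026043, chromosome 1, 45311538 to 45349706, plus strand) encodes type III. Col3a1 scored 724, 826 and 682 in sham and 800, 986 and 868 in contralateral vessels. It scored 2226, 1947 and 1758 in untreated tumour, 2040, 968 and 1317 after dual and 1762, 1785 and 1860 after triple therapy. Tumour and triple therapy libraries were above all controls, and dual replicate 2 lay within the contralateral range. Col3a1 rose by 1.16 ± 0.18 (adjusted p = 5.64e-05) in tumour, and triple therapy vessels stayed 1.03 ± 0.18 (adjusted p = 0.0014) above contralateral vessels. With dual therapy it fell by 0.52 ± 0.18 (adjusted p = 0.0489) from tumour, a call lost in 13 of 15 fits that each left out 1 library, for example without dual replicate 2 (-0.26, adjusted p = 0.281), and with voom (adjusted p = 0.21); without dual replicate 1 the change was -0.80 and stayed called. Its excess over contralateral vessels after dual therapy, 0.64 ± 0.18 (adjusted p = 0.0255), was lost without dual replicate 1 (0.36, adjusted p = 0.119) or contralateral replicate 1 or 3, and with voom (adjusted p = 0.0684). Beside these genes all 9 fibroblast markers fell in tumour against contralateral vessels, with summed scores of 22253 to 28767 in contralateral and 9376 to 12454 in tumour vessels. None of the 9 was at 0 in any library, 6 rose with dual and 8 with triple therapy, and their part in the collagen values was not tested.

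Type V genes, whose chains join the core of type I fibrils, rose to different degrees. Col5a1 scored 163, 136 and 114 in sham and 171, 131 and 150 in contralateral vessels. It scored 501, 386 and 571 in untreated tumour, 227, 87 and 246 after dual and 277, 271 and 197 after triple therapy. Untreated tumour lay above every other library. Col5a1 rose by 1.67 ± 0.29 (adjusted p = 0.000145) in tumour, fell by 1.50 ± 0.29 (adjusted p = 0.00146) with dual and fell by 0.96 ± 0.29 (adjusted p = 0.0158) with triple therapy, the last lost without tumour replicate 3 or triple replicate 3 (adjusted p = 0.064 to 0.0784) or with voom (adjusted p = 0.0501). Processed transcripts overlap its exons on the other strand. Col5a2 scored 784, 856 and 619 in sham and 877, 707 and 687 in contralateral vessels. It scored 938, 1082 and 1230 in untreated tumour, 906, 504 and 992 after dual and 940, 902 and 896 after triple therapy. Tumour was above contralateral vessels by a narrow margin and overlapped dual therapy. Col5a2 rose by 0.52 ± 0.19 (adjusted p = 0.0387), a call lost without contralateral or tumour replicates 2 or 3 (adjusted p = 0.0673 to 0.136) or with voom (adjusted p = 0.192), and was called with neither therapy. Col5a3 scored 70, 65 and 55 in sham and 58, 131 and 66 in contralateral vessels. It scored 509, 568 and 373 in untreated tumour, 108, 188 and 145 after dual and 70, 140 and 121 after triple therapy. Untreated tumour was above all other libraries for Col5a3. Col5a3 rose by 2.57 ± 0.30 (adjusted p = 2.46e-06) in tumour, fell by 1.72 ± 0.30 (adjusted p = 0.000661) with dual and fell by 2.16 ± 0.30 (adjusted p = 3.86e-05) with triple therapy. Col27a1 encodes a fibrillar collagen of cartilage. Col27a1 scored 62, 65 and 98 in sham and 73, 59 and 100 in contralateral vessels. It scored 100, 232 and 130 in untreated tumour, 114, 119 and 197 after dual and 104, 103 and 94 after triple therapy. Its tumour and contralateral libraries met at 100. Col27a1 rose by 0.93 ± 0.30 (adjusted p = 0.0166) in tumour, with tumour replicate 2 the highest library, and the call was lost without that library (0.59, adjusted p = 0.105) or contralateral replicate 2 (0.75, adjusted p = 0.0757). In all, 4 of 26 alternatives did not call this rise. Col24a1 scored 0 to 28 and was called in no comparison.

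**Figure D5:**
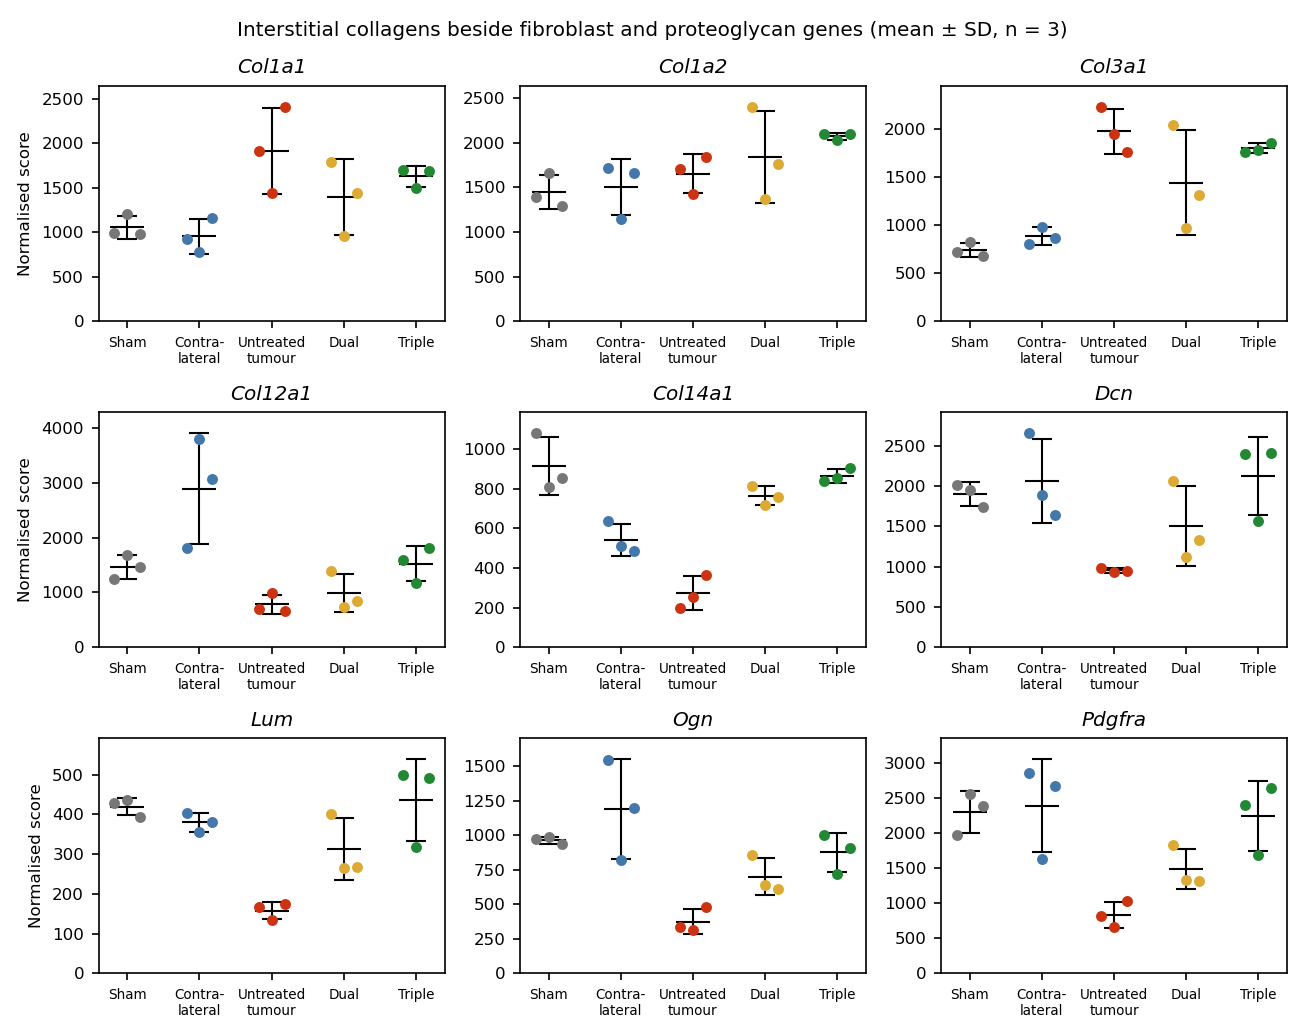
Normalised score (y axis, from 0) of Col1a1, Col1a2, Col3a1, Col12a1, Col14a1, the proteoglycan genes Dcn, Lum and Ogn and the fibroblast marker Pdgfra in each library (points) by group (x axis), with bars for the mean ± SD of 3 libraries. Untreated tumour is higher than contralateral vessels for Col1a1 and Col3a1 and lower for Col12a1, Col14a1 and the 4 non-collagen genes.

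The 9 fibril-associated genes split, with 5 risen and 3 fallen in tumour. That was 88.9% of the class, where 42.5% of all genes were called (21.1% higher and 21.4% lower). Type IX coats cartilage fibrils, and its 3 chain genes rose. Col9a1 scored 5, 2 and 3 in sham and 6, 0 and 2 in contralateral vessels. It scored 491, 411 and 251 in untreated tumour, 162, 50 and 37 after dual and 80, 154 and 152 after triple therapy. Controls held at most 6, so this gene passed the filter only through tumour-region libraries and its fold change depends on the value added before taking logs. Col9a1 rose by 7.07 ± 0.60 (adjusted p = 8.35e-08) in tumour (4.94 to 7.74 over the alternatives) and fell by 2.45 ± 0.60 (adjusted p = 0.00729) with dual therapy, where the adjusted p was 0.0555 without both tumour replicate 2 and dual replicate 2. With triple therapy it changed by -1.58 ± 0.60 (adjusted p = 0.0522), not called although the libraries did not overlap; 10 of 26 alternatives called this fall (adjusted p = 0.0036 to 0.0462), among them voom and a pseudocount of 10. Col9a2 scored 41, 33 and 38 in sham and 41, 19 and 23 in contralateral vessels. It scored 708, 634 and 498 in untreated tumour, 235, 115 and 114 after dual and 131, 217 and 196 after triple therapy. Tumour, therapy and control libraries of Col9a2 formed separate ranges. Col9a2 rose by 4.48 ± 0.30 (adjusted p = 7.87e-09) in tumour, fell by 2.05 ± 0.30 (adjusted p = 0.000168) with dual and fell by 1.77 ± 0.30 (adjusted p = 0.00024) with triple therapy. Col9a3 scored 99, 61 and 79 in sham and 157, 77 and 119 in contralateral vessels. It scored 259, 380 and 217 in untreated tumour, 106, 123 and 99 after dual and 149, 160 and 215 after triple therapy. Dual therapy libraries lay within the contralateral range, and all tumour libraries were above both. Col9a3, which overlaps Tcfl5 on the other strand, rose by 1.29 ± 0.26 (adjusted p = 0.000618) in tumour and fell by 1.34 ± 0.26 (adjusted p = 0.00152) with dual therapy, and changed by -0.68 ± 0.26 (adjusted p = 0.0521) with triple therapy, not called.

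Col16a1 and Col20a1 encode further fibril-associated chains and followed a like order of groups. Col16a1 scored 128, 149 and 139 in sham and 127, 104 and 143 in contralateral vessels. It scored 726, 784 and 693 in untreated tumour, 260, 223 and 334 after dual and 216, 307 and 214 after triple therapy. Col20a1 scored 21, 20 and 24 in sham and 30, 21 and 23 in contralateral vessels. It scored 1118, 535 and 856 in untreated tumour, 92, 168 and 88 after dual and 52, 83 and 43 after triple therapy. For both genes untreated tumour was highest, both therapies lay between, and controls were lowest, with no overlap between these levels. Col16a1 rose by 2.56 ± 0.18 (adjusted p = 1.09e-08) in tumour, fell by 1.45 ± 0.18 (adjusted p = 3.73e-05) with dual and fell by 1.59 ± 0.18 (adjusted p = 4.84e-06) with triple therapy. Col20a1 rose by 4.98 ± 0.31 (adjusted p = 2.59e-09) in tumour, fell by 2.84 ± 0.31 (adjusted p = 1.47e-05) with dual and fell by 3.79 ± 0.31 (adjusted p = 5.62e-07) with triple therapy. A transcript on the same strand overlaps its exons. Col12a1 and Col14a1, whose products bind type I fibrils in connective tissue, went the other way. Col12a1 scored 1241, 1678 and 1469 in sham and 1803, 3801 and 3066 in contralateral vessels. It scored 700, 986 and 666 in untreated tumour, 1387, 733 and 841 after dual and 1597, 1178 and 1803 after triple therapy. Contralateral vessels were highest, above sham and above untreated tumour, with replicate 2 at the top. Col12a1 fell by 1.84 ± 0.25 (adjusted p = 1.35e-05) in tumour and rose by 0.96 ± 0.25 (adjusted p = 0.00701) from tumour to triple therapy; with dual therapy it changed by 0.30 ± 0.25 (adjusted p = 0.432), not called, and stayed -1.54 ± 0.25 (adjusted p = 0.000433) against contralateral vessels. Col14a1 scored 1079, 811 and 852 in sham and 635, 509 and 484 in contralateral vessels. It scored 197, 254 and 366 in untreated tumour, 815, 720 and 758 after dual and 838, 854 and 904 after triple therapy. Untreated tumour was lowest and did not overlap any other group. Col14a1 fell by 1.03 ± 0.17 (adjusted p = 0.000116) in tumour, rose by 1.53 ± 0.17 (adjusted p = 1.99e-05) from tumour to dual and rose by 1.71 ± 0.17 (adjusted p = 2.21e-06) from tumour to triple therapy. Triple therapy vessels lay above contralateral vessels by 0.68 ± 0.17 (adjusted p = 0.0253), a call lost without contralateral replicate 2 or 3 or any triple therapy replicate (adjusted p = 0.0704 to 0.132). Col19a1 (5 to 52) fell in tumour (-1.41, adjusted p = 0.0449), lost in 9 of 15 fits that left out 1 library, with -0.90 without tumour replicate 2, and with endothelial scaling (adjusted p = 0.135). Col22a1 (14 to 50) was called in no comparison.

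Among the beaded-filament, anchoring and other collagens 2 of 9 rose in tumour against contralateral vessels, Col6a3 and Col7a1. That was 22.2% of the class, where 42.5% of all genes were called and 21.1% rose, so this class did not exceed all genes. Col6a3 encodes the large α3 chain of type VI. Col6a3 scored 117, 160 and 128 in sham and 137, 97 and 104 in contralateral vessels. It scored 1164, 462 and 994 in untreated tumour, 273, 162 and 192 after dual and 350, 295 and 291 after triple therapy. Untreated tumour was highest, and triple therapy lay above all controls. Col6a3 rose by 2.85 ± 0.27 (adjusted p = 2.24e-07) in tumour, fell by 1.99 ± 0.27 (adjusted p = 8.63e-05) with dual and fell by 1.38 ± 0.27 (adjusted p = 0.000727) with triple therapy, and triple therapy stayed 1.47 ± 0.27 (adjusted p = 0.00178) above contralateral vessels, a call lost with voom (adjusted p = 0.0835). Its partners Col6a1 (194 to 349) and Col6a2 (103 to 181) were called in no comparison, and the per-length ratio of Col6a1 to Col6a3 was 5.44 to 6.39 in contralateral vessels and 0.65 to 1.67 in untreated tumour. From tumour to triple therapy Col6a2 changed by 0.52 (adjusted p = 0.057), and several alternatives called this rise, for example voom (0.72, adjusted p = 0.00821). Col7a1 encodes the anchoring-fibril collagen. Col7a1 scored 68, 61 and 42 in sham and 59, 97 and 88 in contralateral vessels. It scored 206, 322 and 221 in untreated tumour, 164, 150 and 257 after dual and 107, 119 and 103 after triple therapy. Tumour overlapped dual but not triple therapy. Col7a1 rose by 1.61 ± 0.25 (adjusted p = 5.74e-05) in tumour and fell by 1.15 ± 0.25 (adjusted p = 0.00202) with triple therapy, and changed by -0.40 ± 0.25 (adjusted p = 0.277) with dual therapy, not called, staying 1.21 ± 0.25 (adjusted p = 0.00351) above contralateral vessels. Col6a6 encodes another type VI chain. Col6a6 scored 313, 374 and 338 in sham and 273, 195 and 209 in contralateral vessels. It scored 92, 152 and 318 in untreated tumour, 348, 198 and 296 after dual and 346, 312 and 233 after triple therapy. Tumour libraries ranged from below to above the contralateral ones. Col6a6 fell by 1.05 ± 0.31 (adjusted p = 0.00973) in tumour against sham, lost without tumour replicate 1 (-0.63, adjusted p = 0.0748), and rose by 0.83 ± 0.31 (adjusted p = 0.0482) with triple therapy, lost in 11 of 15 fits that left out 1 library (0.41 without tumour replicate 1 and 1.30, still called, without tumour replicate 3). Col28a1 (34 to 112) fell in tumour against sham and rose with dual (0.99, adjusted p = 0.0162) and triple therapy (1.17, adjusted p = 0.00352), the former lost without tumour replicate 1 or dual replicate 2 (adjusted p = 0.0619 to 0.0656) or with endothelial scaling (adjusted p = 0.0859). Col26a1 (4 to 57) fell in tumour against sham (-1.68, adjusted p = 0.0419). This call was lost in 6 of 15 fits that left out 1 library, with -0.86 without tumour replicate 2, and in 9 of 26 alternatives in all. Col6a4 (0 to 18) and Col6a5 (0 to 13) were called in no comparison.

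Of 4 transmembrane collagens 3 fell in tumour against contralateral vessels and none rose. That was 75% of the class, where 42.5% of all genes were called and 21.4% fell. Col13a1 encodes a collagen of cell-matrix junctions. Col13a1 scored 117, 160 and 104 in sham and 173, 86 and 148 in contralateral vessels. It scored 35, 43 and 73 in untreated tumour, 129, 49 and 109 after dual and 103, 108 and 110 after triple therapy. Untreated tumour was below contralateral vessels and overlapped dual therapy. Col13a1 fell by 1.42 ± 0.34 (adjusted p = 0.00244) in tumour and rose by 1.14 ± 0.34 (adjusted p = 0.0152) with triple therapy, lost without tumour replicate 1 (0.92, adjusted p = 0.0749). Col23a1 encodes another transmembrane chain. Col23a1 scored 135, 147 and 154 in sham and 272, 131 and 249 in contralateral vessels. It scored 62, 99 and 134 in untreated tumour, 189, 142 and 155 after dual and 174, 234 and 226 after triple therapy. Tumour replicate 3 and contralateral replicate 2 overlapped. Col23a1 fell by 1.14 ± 0.27 (adjusted p = 0.00225) in tumour, rose by 1.15 ± 0.27 (adjusted p = 0.0031) with triple and rose by 0.77 ± 0.27 (adjusted p = 0.046) with dual therapy; the last was lost in 12 of 15 fits that left out 1 library, with 0.48 without tumour replicate 1, and with endothelial scaling (adjusted p = 0.211). Col25a1 encodes a collagen of neurons, found in amyloid plaques. Col25a1 scored 178, 184 and 184 in sham and 119, 110 and 128 in contralateral vessels. It scored 41, 16 and 42 in untreated tumour, 40, 70 and 97 after dual and 105, 129 and 62 after triple therapy. Every tumour library was below every control library. Col25a1 fell by 1.94 ± 0.35 (adjusted p = 0.000241) in tumour, rose by 1.61 ± 0.35 (adjusted p = 0.002) with triple and rose by 1.07 ± 0.35 (adjusted p = 0.0357) with dual therapy. The last call was lost without tumour replicate 2 (0.63, adjusted p = 0.162), dual replicate 2 or dual replicate 3 and with endothelial scaling (adjusted p = 0.155). In all, 8 of 26 alternatives did not hold it. Beside these falls, 7 of 7 neuron markers fell in tumour, with summed scores of 8712 to 10663 in contralateral vessels and 1566 to 3156 in tumour, and all 7 were above 0 in every library; their part in the result was not tested. Col17a1 (17 to 50) was called in no comparison.

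The remaining comparisons set treated against contralateral vessels, triple against dual therapy, and contralateral against sham vessels. Contralateral vessels came from mice with a tumour and on control IgG. For sham mice no IgG and no day are stated here, so tumour, IgG and time cannot be told apart in the last comparison. After dual therapy 11 members were higher and 2 lower than in contralateral vessels, 29.5% where 12.8% of all genes were called (6.91% higher and 5.89% lower). After triple therapy 11 were higher and none lower, 25.0% where 4.97% of all genes were called (4.15% higher and 0.824% lower). The 2 lower members after dual therapy were Col12a1 and Col8a1. After triple therapy Col12a1 was at -0.88 against contralateral vessels (limma adjusted p = 0.052), not called. Several alternatives called it lower, for example a pseudocount of 10 (adjusted p = 0.0456) and the fit without contralateral replicate 1 (-1.18, adjusted p = 0.00573). Col9a1, Col2a1 and Col11a1 had the largest excess in both lists, and Col9a3 was called in neither (-0.05 and 0.61). After triple therapy Col9a1 was 5.49 ± 0.60 (adjusted p = 1.81e-05) above contralateral vessels, 3.43 to 6.17 over the alternatives, since its control libraries are near 0. Col9a2 was 2.71 ± 0.30 (adjusted p = 1.95e-05) and Col11a2 2.04 ± 0.24 (adjusted p = 3.15e-05) higher. Col20a1 was 2.14 ± 0.31 (adjusted p = 0.000127) higher after dual and 1.19 ± 0.31 (adjusted p = 0.028) after triple therapy, the latter lost without contralateral replicate 2 or 3 or triple replicate 1 or 2 (adjusted p = 0.065 to 0.188), and with voom both were lost (adjusted p = 0.0569 and 0.434). Col6a3 was 0.87 ± 0.27 (adjusted p = 0.0391) higher after dual therapy, a call lost without contralateral replicate 2 or 3, dual replicate 1 or 3 or triple replicate 1 (adjusted p = 0.0502 to 0.152) and with voom (adjusted p = 0.275). No member was called between triple and dual therapy, where 0.869% of all genes were; 10 members (22.7%) had an unadjusted p below 0.05, against 14.5% of all genes, and voom also called 0. The smallest adjusted p was 0.155, for Col20a1, at -0.95 ± 0.31. No member was called between contralateral and sham vessels, where 0.432% of all genes were; 8 members (18.2%) had an unadjusted p below 0.05, against 11.9% of all genes, and voom called 0. Contralateral and sham libraries did not overlap for Col8a1, at 0.80 ± 0.19 (adjusted p = 0.0686), Col14a1, at -0.75 ± 0.17 (adjusted p = 0.0681), or Col12a1, at 0.93 ± 0.25 (adjusted p = 0.114). A fit of only these 6 libraries, with the filter applied within them, called 6 of the 41 members tested (14.6%), where it called 4.22% of all genes. Col8a1, Col8a2 and Col12a1 were higher and Col6a6, Col14a1 and Col25a1 lower in contralateral vessels. The summed score of 6 choroid plexus markers was 22928 to 24987 in sham, 40807 to 84259 in contralateral and 16489 to 32113 in dual therapy vessels. None of the 6 was called between contralateral and sham vessels (median log2 change 0.97), 3 fell from contralateral to dual therapy vessels, and their part in the values of Col8a1 and the other members was not tested.

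Genes that make and handle collagen were read beside the family. Of all genes tested, 21.1% rose and 21.4% fell in tumour against contralateral vessels. The shares were 12.1% and 10.2% with dual and 17.2% and 15% with triple therapy against tumour. Of 19 hydroxylation and folding genes 11 rose and 3 fell in tumour; 2 rose and 7 fell with dual and 4 rose and 4 fell with triple therapy. Colgalt1, which adds galactose to collagen hydroxylysine, rose by 0.73 ± 0.13 (adjusted p = 0.000264) in tumour, and the chaperone gene Fkbp10 rose by 1.14 ± 0.22 (adjusted p = 0.000451). Fkbp10 then fell by 1.54 ± 0.22 (adjusted p = 0.000155) with dual and fell by 1.17 ± 0.22 (adjusted p = 0.000634) with triple therapy. Plod3, a lysyl hydroxylase gene, rose by 0.70 ± 0.14 (adjusted p = 0.00078) in tumour, while the channel gene Tmem38b fell by 0.86 ± 0.20 (adjusted p = 0.00172). Of 16 tested genes for export, propeptide cleavage and crosslinking 8 rose and 2 fell in tumour; none rose and 6 fell with dual, and 1 rose and 7 fell with triple therapy. Bmp1, which encodes the procollagen C-proteinase, scored 161, 161 and 167 in contralateral vessels and 826, 586 and 641 in untreated tumour. It scored 278, 254 and 318 after dual and 267, 310 and 251 after triple therapy, so tumour was separate from both. Bmp1 rose by 2.05 ± 0.15 (adjusted p = 2.04e-08) in tumour, fell by 1.26 ± 0.15 (adjusted p = 3.45e-05) with dual and fell by 1.30 ± 0.15 (adjusted p = 7.73e-06) with triple therapy. The crosslinking genes Loxl3, Loxl2 and Pxdn, of which peroxidasin (Pxdn) links type IV, rose by 1.08, 1.32 and 1.18 in tumour, and Pxdn fell by 1.13 ± 0.22 (adjusted p = 0.00161) with dual therapy. Among 10 receptor and uptake genes 2 rose and 2 fell in tumour; 2 rose and 1 fell with dual, and 2 rose and 2 fell with triple therapy. The integrin gene Itga2 rose by 2.50 ± 0.29 (adjusted p = 2.38e-06) and the inhibitory leukocyte receptor gene Lair1 rose by 1.94 ± 0.18 (adjusted p = 2.09e-07), whereas Mrc2, which encodes a collagen uptake receptor, fell by 1.21 ± 0.15 (adjusted p = 3.16e-06). All 8 fibril-binding proteoglycan genes fell in tumour, and 6 rose with dual and 7 with triple therapy relative to it. Their largest fall was that of Fmod (-2.70), with Ogn at -1.65, Aspn at -1.50 and Lum at -1.27. Dcn and Lum are on both this list and the fibroblast list. Lum scored 403, 356 and 381 in contralateral vessels and 166, 133 and 175 in untreated tumour, where Col1a1 and Col3a1 were higher than in contralateral vessels.

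Markers of other cell types moved with these groups, and their part in the collagen changes was not tested. Of all genes tested, 42.5% were called in tumour against contralateral vessels. With dual therapy 22.3% and with triple therapy 32.2% were called against tumour. Of pericyte markers 9 of 10 fell (55663 to 71704 against 25169 to 29682), and of smooth muscle markers 5 of 6 fell. With dual therapy 7 of the 10 pericyte markers rose, and with triple therapy 9. Endothelial markers moved less: 1 rose and 3 fell of 11 in tumour. All 6 proliferation markers rose in tumour, from sums of 103 to 254 to sums of 5382 to 12203, and all 6 fell with each therapy, to 941 to 1564 and 1342 to 1698; Ccnb1 was at 0 in some libraries. Of 6 oligodendrocyte precursor markers 3 rose in tumour, including Olig2 (3.44) and Sox10 (3.71), and 2 fell, including Pdgfra (-1.49), which is also a fibroblast marker. Olig2 fell by 2.15 ± 0.28 (adjusted p = 7.51e-05) with dual and fell by 2.31 ± 0.28 (adjusted p = 1.16e-05) with triple therapy. All 6 macrophage and microglia markers rose in tumour, from sums of 1382 to 1593 to sums of 3710 to 4960; none was called with dual therapy and Itgam alone of the 6 fell with triple therapy (-0.88). Of astrocyte markers 3 of 6 fell in tumour, and of choroid plexus markers 1 of 6.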

How the data were processed

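RNA-seq of pooled brain microvessels gave 1 table of whole-number scores for 27174 genes in 15 libraries. The authors deposited these scores normalised between libraries and rounded, so they are not read counts; the submitters' processing notes list STAR 2.4.0a, featureCounts 1.4.5-p1, DESeq2 1.62 and mm10, and name no strand setting. The table holds no depth, so reads were estimated from the gaps between low scores of each library and used only for voom.

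Genes scoring 10 or more in 3 or more libraries (19668, with 7506 left out) were fitted as log2(score + 1) in limma 3.58.1 (R 4.3.3), with 1 mean per group, a mean-variance trend and Benjamini-Hochberg adjustment over all genes tested, at 0.05. The fit and the depth estimate were tested on simulated data; the depth estimate failed only where multiples of 1 read's value fell on rounding ties. Alternatives changed the pseudocount, filter, scaling, trend, block and libraries. Members, lists and tests were chosen with earlier results of these data known. Library values are given for the 29 members called in at least 1 of 8 comparisons with a group mean of at least 100, and up to 4 genes a list by adjusted p. Per-length values divide by exon length.

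The labels state no pairing of replicate numbers, so the numbers were not used as pairs. Deviations of same-numbered libraries from their group means had a correlation of -0.13 to 0.103 over 30 pairs. This cannot exclude that tumour and contralateral libraries of the same number shared mice.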

Additional observations from a re-analysis of the deposited data

How the results depend on the processing

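Of 124 member calls over the 8 comparisons, 95 held in every alternative run, 29 were lost in at least 1, and none of the 3220 values changed direction. The comparisons share genes and libraries, so this tally describes the runs and is not a rate over independent results. No such tally was made for all genes. Calls that alternatives gained are not in the tally. Among them were Col6a2 and Col9a3 between triple therapy and tumour, and Col12a1, Col15a1 and Col18a1 between triple therapy and contralateral vessels. Between contralateral and sham vessels, 6 members instead of 0 were called in the fit of only those libraries with the filter applied within them, and 1 without untreated tumour replicate 2 and dual replicate 2; both alternatives were chosen after seeing the data. Leaving out 1 library at a time gave 0 to 2 there, 0 to 1 between triple and dual therapy, 25 to 29 between tumour and contralateral vessels, 26 to 31 against sham, 16 to 22 for dual and 19 to 22 for triple therapy against tumour. Shares of all genes called in these runs are not given beside the counts, so the ranges describe the members only. The causes were not tested.

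With the replicate number as a block, 29 members were called between tumour and contralateral vessels, 30 against sham, 20 for dual and 20 for triple therapy against tumour, and 0 between contralateral and sham vessels and between the therapies. Shares of all genes called with the block are not given here, so these counts describe the members only. The block ended the Col3a1 call for dual therapy (adjusted p = 0.0515) and the Col6a6 call for triple therapy against tumour (adjusted p = 0.0558). It added calls for Col9a1 from tumour to triple therapy (adjusted p = 0.0356), and against contralateral vessels for Col5a3 after dual (adjusted p = 0.0309) and Col15a1 after triple therapy (adjusted p = 0.0235). The numbers were not taken to pair the libraries, since the labels state no pairing. The correlation was over 0.1 in 1 of 30 same-numbered pairs. Of the 30, 13 matched each other best, with all 3 numbers doing so in 3 of 10 pairs of groups. That is a hint from the data and not the design, and pairing was neither shown nor excluded. The 3 pairs of groups were sham with contralateral, contralateral with dual therapy, and untreated tumour with dual therapy, each joining different groups of mice. Contralateral and untreated tumour libraries, both from mice on control IgG, matched best for replicate 3 only (r = -0.055, 0.021 and 0.07 for replicates 1 to 3). Members with scores under 100 are the least precise.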

Other observations

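Across the 15 libraries, which share the differences between groups, the genes outside the family whose log2 scores followed Col4a1 most closely were Itga5 (Pearson r = 0.967), Eif4a1 (0.964), Trim28 (0.958), Tpp2 (0.952) and Prim1 (0.95). For Col3a1 they were Sh2d1a (0.962), Ccr4 (0.957), Mmp2 (0.951), Cd22 (0.946) and Sgpl1 (0.945). For Col1a1 they were Ugt1a7c (0.928), Pik3cg (0.926), A630001G21Rik (0.926), Impg1 (0.918) and Ptpn7 (0.91). Within the family, Col11a1 and Col9a2 had an r of 0.989, Col4a1 and Col4a2 of 0.978, Col4a5 and Col4a6 of 0.955, and Col4a5 and Col5a3 of -0.953. These are descriptions over libraries of 5 groups and carry no test.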
